A study of Homo sapiens with 30 samples.

Results

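Differences in chromatin accessibility between HNF6 knockout and control cells were examined around 9 genes of the human pluripotency network, POU5F1, SOX2, NANOG, LIN28A, LIN28B, PRDM14, SALL4, ZFP42 and DPPA4. The members were every deposited region with at least 1 base within 100 kb of the hg19 start site of one of these genes. They came to 79 of the 89929 listed differential regions and 21 of the 22974 wild-type cluster regions. The assay was ATAC-seq, where a transposase cuts and tags open DNA, applied to HUES8, an established human embryonic stem cell line. There were 30 samples in 10 groups of 3. The HNF6-Knockout cells were sampled at 5 stages, as were the wild-type control cells. ESC denotes the undifferentiated state, DE the definitive endoderm and GT the primitive gut tube, and PE and PP are pancreatic endoderm and pancreatic progenitors. HNF6, also named ONECUT1, is a homeodomain factor of the developing liver and pancreas. All 10 groups share the HUES8 background and the in vitro differentiation. The labels do not say how the knockout was made, from how many clones, or whether the 3 samples of a group were differentiated separately, so p-values measure the spread between these samples, some of which may be technical.

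POU5F1 (OCT4), SOX2 and NANOG are transcription factors that hold embryonic stem cells in the undifferentiated state and act on their own and each other's regulatory DNA. PRDM14, SALL4 and ZFP42 (REX1) are further nuclear factors of that state, LIN28A and LIN28B are RNA-binding proteins that block maturation of let-7 microRNAs, and DPPA4 is a chromatin-associated protein. Most of these genes are turned down as human embryonic stem cells become endoderm. The files hold accessible regions and no RNA, so nothing here is a measure of expression.

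A listed region is one that the authors called different between the genotypes at 1 stage, with a -log10 p of at least 5. Each carries 3 whole-number values per genotype, whose unit is not stated. These values and p scores are the authors' own, from their deposited tables. The listing was made on the same values, so they are given below as a description. Ratios are log2 of knockout over control, with 1 added to each mean and an SE over the 3 values of each genotype. In an exact two-sided permutation test 3 values against 3 cannot give a p under 0.1. That smallest p was reached by 65 of the 79 regions, those whose knockout and control values did not overlap. It became 0.122 after Benjamini-Hochberg adjustment over the 79 exact tests, so no region passed 0.05 on these values alone. Such non-overlap was found in 82.3% of the 79 regions, and in 78.5% of all listed regions. The files hold no library totals, so depth is unknown. Distances are from the start site to the nearest edge of a region, on hg19. A window of 100 kb also reaches neighbouring genes, and no hg19 annotation was used here, so a region is not assigned to the gene that names its window, nor to an exon, intron or UTR.

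The 79 regions divided into 55 that were more accessible in the knockout and 24 that were less, a knockout share of 69.6% against 68.1% over all listed regions of the series. In bulk cultures a site open in more cells and a site more open in each cell cannot be told apart. POU5F1 supplied 26 of them, 25 of them knockout-higher and 1 control-higher. The other 8 windows held 30 knockout-higher and 23 control-higher regions (56.6% knockout). The median size of the log2 ratio was 0.86 near the genes and 0.94 over all listed regions. A ratio of at least 2-fold was reached by 34 of the 79 (43.0%), against 45.4% of all listed regions. The regions were 150 to 2500 bp wide, with a median of 750 bp, which was also the median of all listed regions. Their median distance from the start site was 43 kb.

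**Figure D1:**
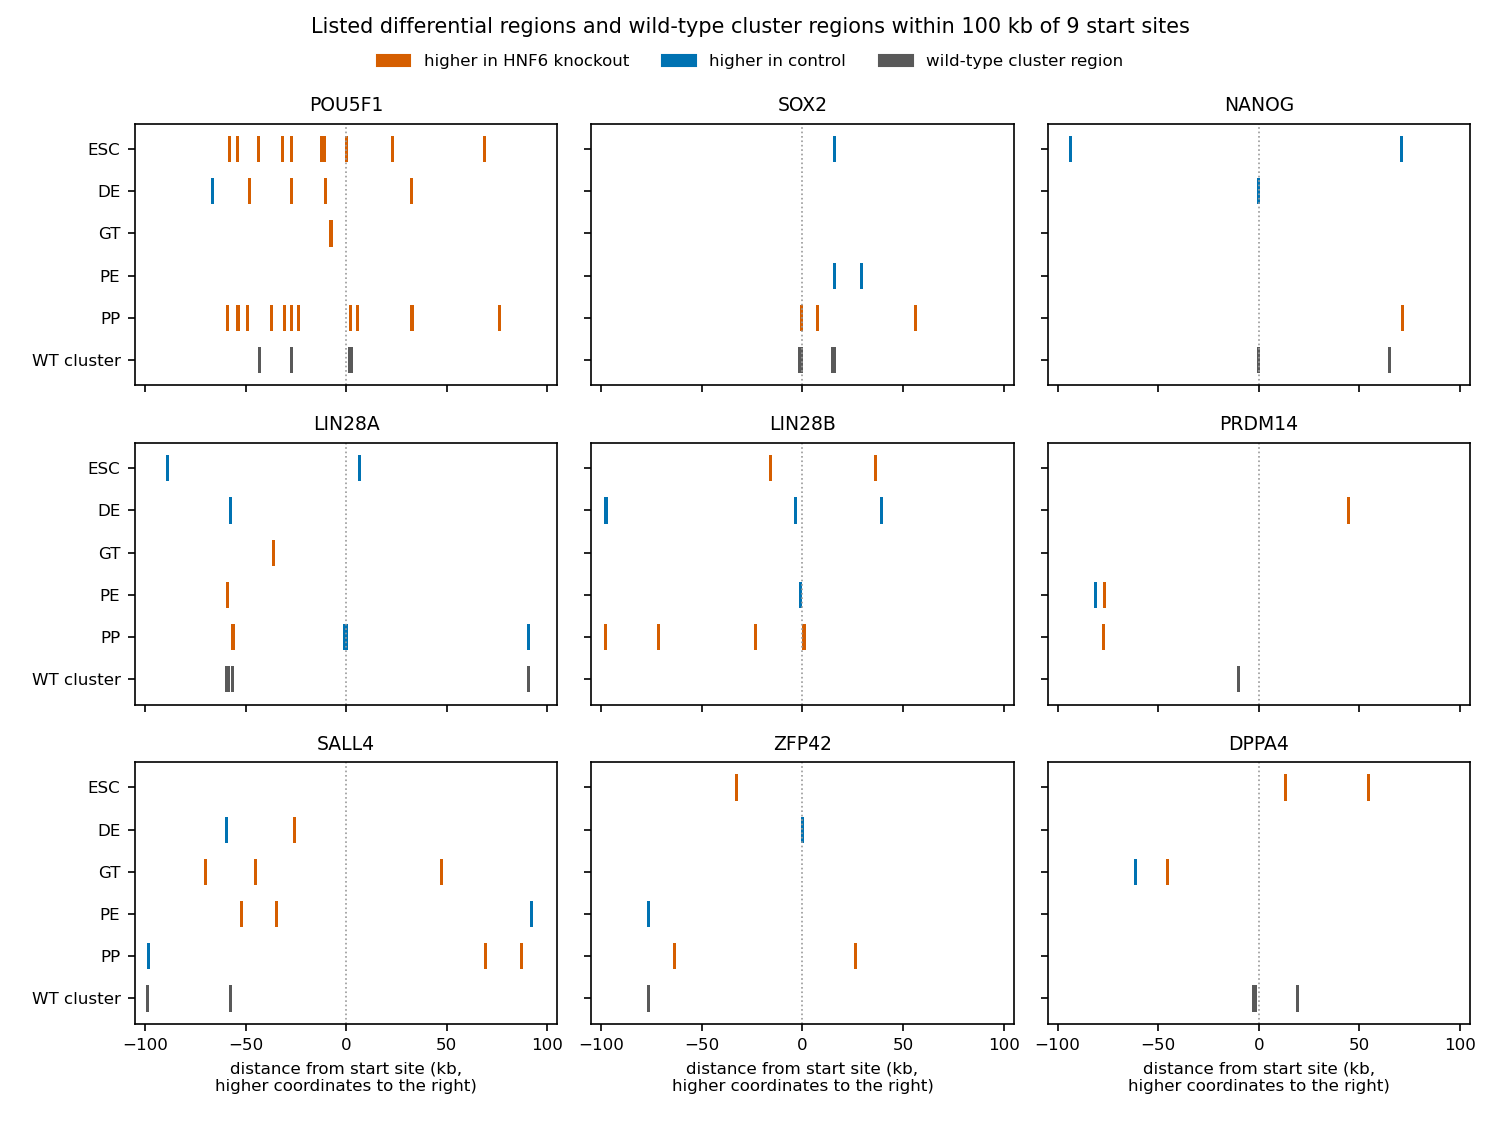
Map of the 79 listed regions and 21 wild-type cluster regions within 100 kb of the 9 start sites. The x axis is the distance from the start site in kb with higher coordinates to the right, each row is a stage, and the lowest row holds the wild-type cluster regions; marks narrower than 1.5 kb are drawn 1.5 kb wide. Regions higher in the knockout (orange) crowd the POU5F1 panel, and the other panels hold both colours.

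By stage, with the 9 windows pooled, the knockout share differed from the share of all listed regions by less than its counting error. That error counts regions as independent, although regions of the same window may not be. At ESC 14 regions were higher in the knockout and 5 in control, a knockout share of 73.7% (95% Wilson interval 51.2 to 88.2, counting error only) beside 57.4% of all ESC regions. DE had 6 and 8 regions, 42.9% (21.4 to 67.4), beside 62.8%. The numbers at GT were 6 and 1, which is 85.7% (48.7 to 97.4), beside 73.0%. At PE they were 4 and 6, or 40.0% (16.8 to 68.7), beside 43.9%. PP had the most, 25 and 4, a share of 86.2% (69.4 to 94.5) beside 88.7%. Each of the 5 intervals contained the share of all regions of its stage. Without the POU5F1 window the knockout shares were 50% of 10 regions at ESC, 22.2% of 9 at DE and 83.3% of 6 at GT. At PE and PP they were 40% of 10 and 77.8% of 18. No interval was computed for these, so the comparison with all listed regions was not tested without POU5F1. At DE the 22.2% stood beside 62.8% of all DE regions. Knockout and control values did not overlap in 15 of the 19 ESC regions (76.1% of all ESC regions), 14 of 14 at DE (77.5%), 6 of 7 at GT (82.6%), 8 of 10 at PE (77.5%) and 22 of the 29 PP regions (79.8%). DE and PE were the stages with more control-higher than knockout-higher regions near these genes.

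**Figure D2:**
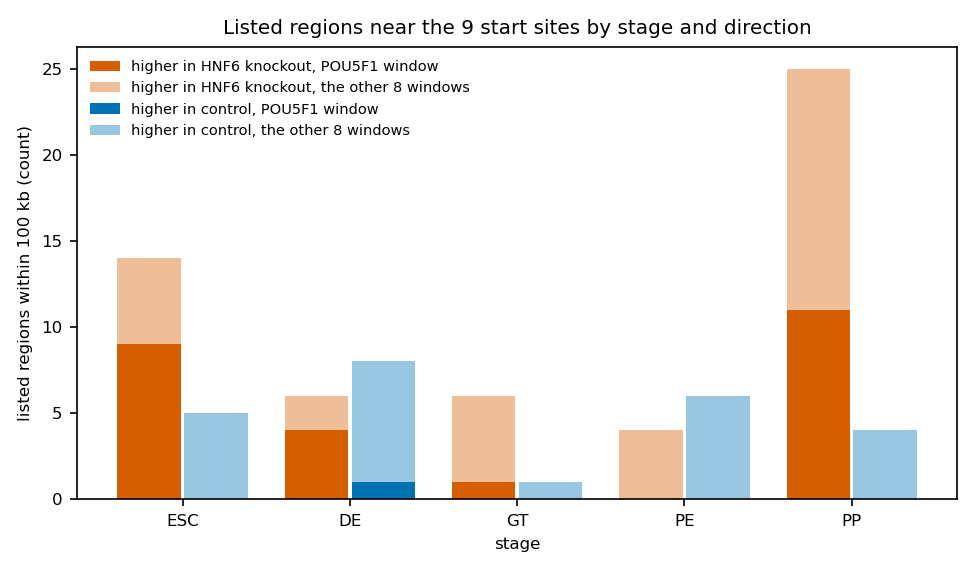
Number of listed regions within 100 kb of the 9 start sites at each stage, knockout-higher bars left and control-higher bars right, with the POU5F1 window in full colour and the other windows pale. POU5F1 gives 9 of the 14 knockout-higher regions at ESC and 11 of the 25 at PP.

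Counts of genes with a listed region are set beside the share of 200 kb windows of the genome that held one. A knockout-higher region lay near 4 of the 9 genes at ESC (44.5% of all 200 kb windows of the autosomes and X), 3 at DE (32.9%), 4 at GT (27.5%), 3 at PE (20.1%) and 8 at PP (53.4%). A control-higher region lay near 3 genes at ESC (23.4% of windows), 6 at DE (32.1%), 1 at GT (15.0%), 5 at PE (30.7%) and 2 at PP (14.1%). All 9 windows held a region of some list, as 80.2% of windows did, and 8 of the 9 held a wild-type cluster region (54.6% of windows). Among windows with a cluster region, the knockout-higher shares from ESC to PP were 56.5%, 47.5%, 39.9%, 30.3% and 70.6%, and the control-higher shares were 36.1%, 43.7%, 21.5%, 43.4% and 21.6%.

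The 250 bases before the start were looked up in the RefSeq promoter table (GRCh38.p14, whose coordinates are not those of the files). PRDM14 was left out of this lookup, so whether it has an entry is not known. The table gave entries for SOX2, NANOG, LIN28B, ZFP42 and DPPA4, and not for POU5F1, LIN28A or SALL4. Those of NANOG, SOX2, ZFP42 and the second LIN28B start are shown because the files list a region within 5 kb of these genes' start sites. The first LIN28B start lies 16.1 kb lower, is not the start used for the window, and is shown beside the second for comparison. Capitals mark matches, on either strand, to ATGCAAA (the core of the octamer bound by POU5F1), ACAAAG (a form of the core for SOX factors) or AGATAA (a form of the core for GATA factors). Other forms of the SOX core, such as the ACAATG beside the marked NANOG match, were not searched. Small letters therefore do not show that a SOX form is absent. The longer octamer ATGCAAAT, the longer GATA form CAGATAAG and the ONECUT core ATCAAT with its variant form ATCGAT were searched too and had no match in these windows. The core ATGCAAA, which lies within ATGCAAAT, was added after the sequences had been read.
NANOG, chr12:7789152-7789401, plus strand: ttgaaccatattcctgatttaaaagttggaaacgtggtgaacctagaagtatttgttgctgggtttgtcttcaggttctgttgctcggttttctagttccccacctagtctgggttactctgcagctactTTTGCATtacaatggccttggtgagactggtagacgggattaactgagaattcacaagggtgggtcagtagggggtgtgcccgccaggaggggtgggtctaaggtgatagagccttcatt
SOX2, chr3:181711675-181711924, plus strand: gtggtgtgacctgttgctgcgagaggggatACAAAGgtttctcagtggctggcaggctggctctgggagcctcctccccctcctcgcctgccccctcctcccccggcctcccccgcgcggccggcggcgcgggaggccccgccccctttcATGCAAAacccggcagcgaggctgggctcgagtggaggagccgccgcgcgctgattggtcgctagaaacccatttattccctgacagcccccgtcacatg
ZFP42, chr4:187995521-187995770, plus strand: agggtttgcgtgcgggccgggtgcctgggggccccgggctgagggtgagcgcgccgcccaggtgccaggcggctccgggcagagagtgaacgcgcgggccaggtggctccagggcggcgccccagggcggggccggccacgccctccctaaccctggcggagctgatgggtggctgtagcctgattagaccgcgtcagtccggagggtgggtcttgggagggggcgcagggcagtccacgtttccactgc
LIN28B first start, chr6:104940715-104940964, plus strand: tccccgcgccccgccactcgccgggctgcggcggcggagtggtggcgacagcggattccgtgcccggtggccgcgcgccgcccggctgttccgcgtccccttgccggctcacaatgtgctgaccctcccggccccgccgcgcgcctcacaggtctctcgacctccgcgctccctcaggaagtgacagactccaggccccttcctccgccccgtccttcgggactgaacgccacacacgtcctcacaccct
LIN28B second start, chr6:104956857-104957106, plus strand: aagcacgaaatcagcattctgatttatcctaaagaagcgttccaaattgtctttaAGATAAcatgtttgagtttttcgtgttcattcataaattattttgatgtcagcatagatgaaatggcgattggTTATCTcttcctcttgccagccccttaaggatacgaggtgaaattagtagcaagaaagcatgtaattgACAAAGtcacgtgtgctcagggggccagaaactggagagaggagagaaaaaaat
NANOG held ATGCAAA on the reverse strand, 120 bases before its start, and SOX2 held it 100 bases before. Of 35116 promoters in the table, 3.94% contain it. SOX2 also held ACAAAG, and the second LIN28B start held ACAAAG once and AGATAA on both strands; 13.7% and 9.17% of promoters contain these. The longer octamer occurs in 1.63%, CAGATAAG in 0.612%, ATCAAT in 5.58% and ATCGAT in 0.655%. The stretches of ZFP42 and of the first LIN28B start are rich in G and C (74.4% and 73.6%) and those of NANOG and the second LIN28B start are not (47.6% and 38.4%), around a median of 58.0% over the table. A match is a description of letters, not a site of binding.

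Within 5 kb of a start site there were 10 listed regions at 6 genes, 4 knockout-higher and 6 control-higher, where 68.1% of all listed regions were knockout-higher. That share pools stages with shares from 43.9% at PE to 88.7% at PP, and was not matched to the stages of the 10. Both LIN28A regions, at PP, lay side by side and are counted separately. A region of some list lay at 6 of the 9 start sites, beside 20.3% of all 10 kb windows of the genome and 60.4% of those with a wild-type cluster region. Knockout-higher regions lay at 3 start sites (15.4% of windows, and 44.7% of those with a cluster region) and control-higher ones at 4 (8.49% and 33.9%). No hg19 start sites of other genes were used, so the share over start sites in general is not given. The regions at POU5F1 and SOX2 were higher in the knockout, those of NANOG, LIN28A and ZFP42 were higher in control, and LIN28B had both. None of the 10 was listed at more than 1 stage. PRDM14, SALL4 and DPPA4 had no listed region that close.

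**Figure D3:**
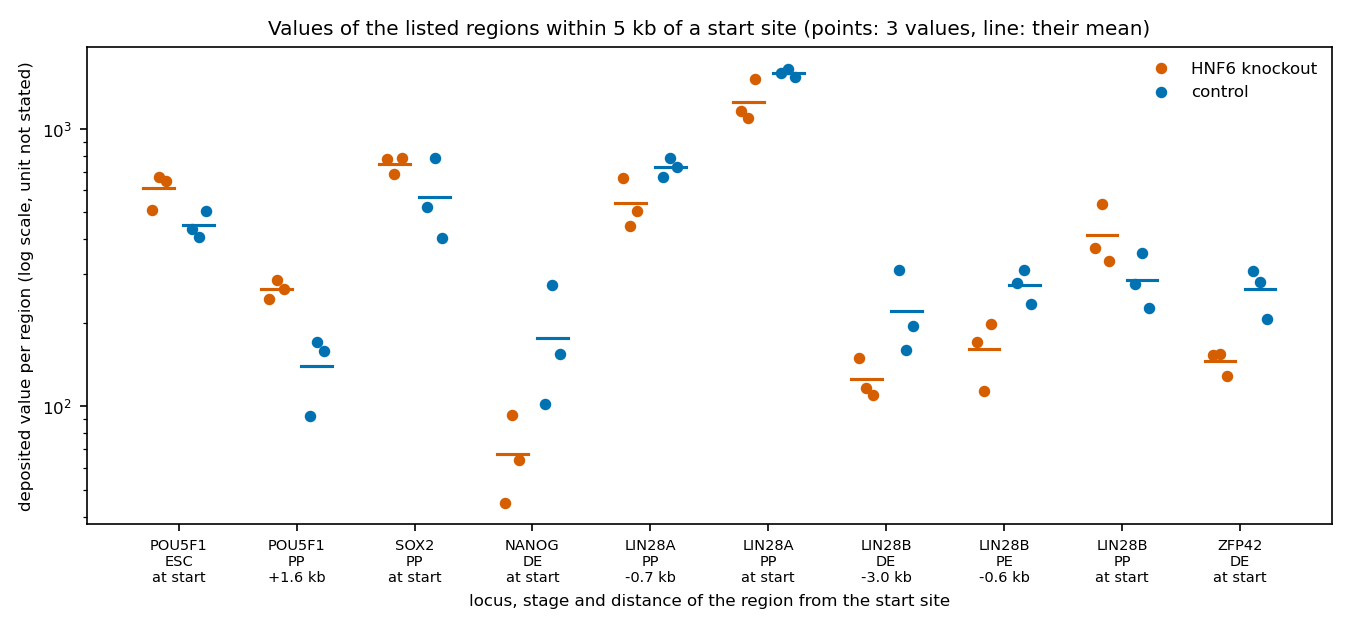
Deposited values of the 10 listed regions within 5 kb of a start site, on a log scale, knockout left and control right of each position; points are the 3 values of a genotype and lines their means. The values of the genotypes overlap in the SOX2 and LIN28B regions at PP and in none of the other 8.

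Around POU5F1, knockout cells were the more accessible in nearly every listed region. The gene lies in the major histocompatibility complex of chromosome 6, between TCF19 and HLA-C in the order of the RefSeq gene table. Its window held 9 knockout-higher regions and no control-higher one at ESC, 4 and 1 at DE, 1 and 0 at GT, 0 and 0 at PE, and 11 and 0 at PP. The only region higher in control was at DE, 66.0 kb to the lower side (chr6:31071251-31071950), with 87, 56 and 41 in the knockout, against 142, 98 and 197 in control.

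At the POU5F1 start site itself, the ESC region chr6:31137851-31138700 had values of 511, 672 and 648 in the knockout, against 434, 409 and 504 in control. The genotypes were separated by a narrow gap, and the log2 ratio was 0.44 ± 0.15 (SE). At PP a region from 1.6 kb on the higher side, chr6:31139551-31140700, had 243, 285 and 265 in the knockout, against 92, 170 and 158 in control, a log2 ratio of 0.91 ± 0.26. POU5F1 is read towards lower coordinates, so this side is upstream of the gene, where its known enhancers lie. The region covers 1 wild-type region of cluster 7 and overlaps 1 of cluster 1. A further PP region, 5.2 kb upstream at chr6:31143151-31143600, had 145, 105 and 92 in the knockout, against 46, 56 and 40 in control, again without overlap.

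The place listed most often lay 26.6 kb to the lower side of the start. It was higher in the knockout at ESC, DE and PP, and it was the only place near the 9 genes listed at 3 stages. These stages share no library, but all are of HUES8 cells and the number of knockout clones is not known. At ESC, chr6:31110401-31111500 had 387, 385 and 457 in the knockout, against 295, 230 and 292 in control. The DE region, chr6:31110151-31111450, had 537, 390 and 458 in the knockout, against 265, 377 and 273 in control. At PP, chr6:31110501-31111350 had 262, 202 and 216 in the knockout, against 37, 91 and 118 in control. The log2 ratios were 0.59 ± 0.14, 0.60 ± 0.22 and 1.46 ± 0.43 in that order, and the genotypes did not overlap at any of the 3 stages. The place covers a wild-type region of cluster 7. Levels are not compared between stages, since the scaling of each list is not stated.

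In all, 6 of the 11 places listed at more than 1 stage were in the POU5F1 window, and all 6 were higher in the knockout each time. They were 6 of the 19 places of that window (31.6%), beside 20.4% of the 167 places in its flanks, 11.8% on chromosome 6 and 12.9% of all places of the series. Of the places listed at more than 1 stage, 30 of the 34 in the flanks (88.2%), 55.4% on chromosome 6 and 42.2% of all were higher in the knockout each time. Near the 9 genes 8 of the 11 kept their direction, beside 52.0% of all. Of the other 5 near the 9 genes, the places near SOX2 and PRDM14 kept their direction and those near NANOG, LIN28A and LIN28B changed it. ESC and PP shared chr6:31078451-31080600, chr6:31083201-31084450 and chr6:31105451-31107950. ESC and DE shared chr6:31125201-31128000, and DE and PP shared chr6:31169801-31171650. The broadest member, at ESC (chr6:31125201-31127700), had 2421, 2273 and 2006 in the knockout, against 2004, 1894 and 1814 in control, with a log2 ratio of 0.23 ± 0.09, the smallest of all 79. At GT the single region, chr6:31129451-31131500, had 398, 439 and 472 in the knockout, against 306, 204 and 265 in control. The median size of the log2 ratio in the window was 0.81, with a range of 0.23 to 2.22. The largest was at ESC 68.7 kb upstream, chr6:31206701-31207000, where low values of 50, 55 and 64 in knockout stood against 6, 25 and 3 in control cells. With 1 value left out its log2 ratio of 2.22 was 1.80 to 3.38.

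**Figure D4:**
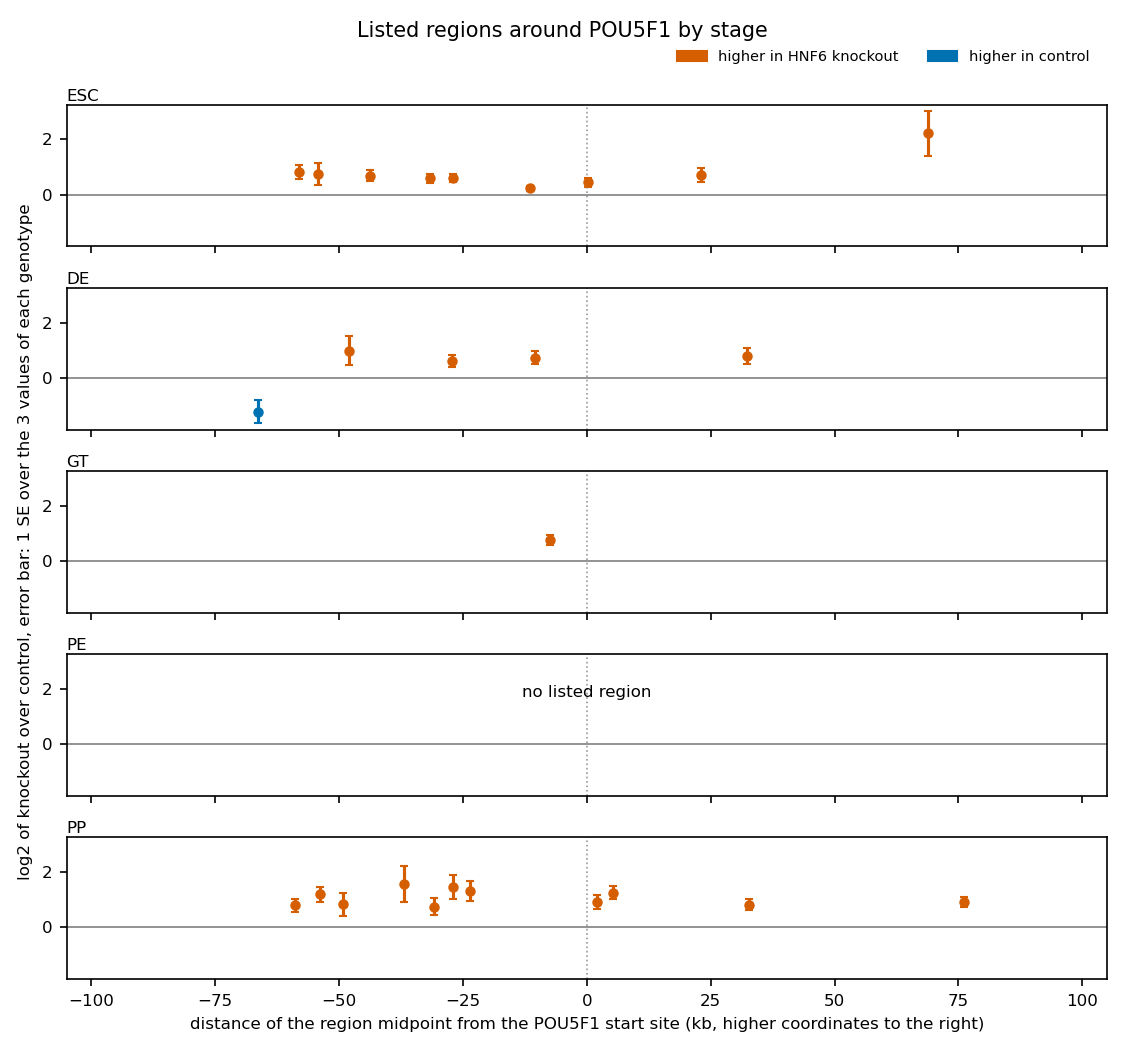
Log2 ratio of knockout over control of the 26 listed regions around POU5F1, by stage, against the distance of the region midpoint from the start site in kb; error bars are 1 SE over the 3 values of each genotype. All points but 1 at DE lie above 0, and PE has no listed region.

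The lean towards the knockout extended beyond the POU5F1 window. Between 100 kb and 1000 kb from the start site, 194 of 218 listed regions were higher in the knockout (89.0%), against 25 of 26 within 100 kb (96.2%). By stage the flanks had 94.7% (ESC), 88.6% (DE), 91.7% (GT), 71.9% (PE) and 91.8% (PP). The whole of chromosome 6 had 84.0%, 53.3%, 76.4%, 30.6% and 95.6% at these stages, so the flanks of POU5F1 were further towards the knockout than their chromosome at each stage but PP, and by the widest margin at PE and DE. The part of the neighbourhood in the values of the window was not tested.

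**Figure D5:**
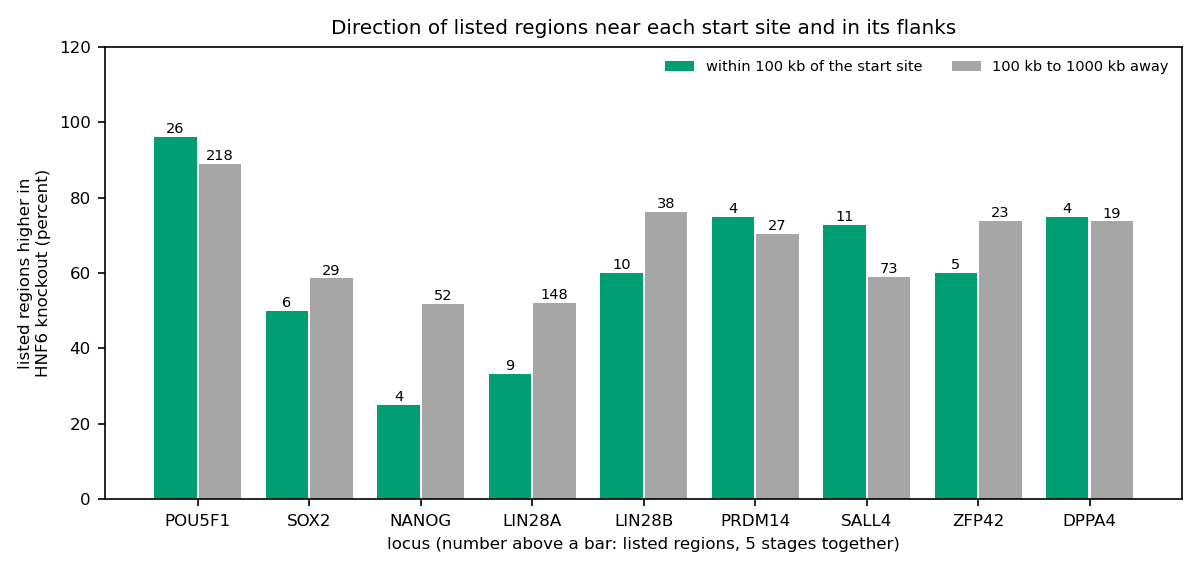
Percent of listed regions that were higher in the knockout, over the 5 stages together, within 100 kb of each start site (green) and 100 kb to 1000 kb away (grey), with the number of regions above each bar. POU5F1 has 96.2% of 26 beside 89.0% of 218, and NANOG 25.0% of 4 beside 51.9% of 52.

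SOX2 had 6 listed regions, 3 in each direction, and the direction went with the stage. At ESC and PE knockout cells were lower, and at PP they were higher. At PP 88.7% of all listed regions and 94.0% of those on chromosome 3 were higher in the knockout, at ESC 57.4% and 49.7%, and at PE 43.9% and 68.5%. The place 15.3 kb downstream of the start, which covers a wild-type region of cluster 1 in the ESC list, was lower in the knockout at both ESC and PE. At ESC, chr3:181445301-181446100 had 191, 165 and 133 in the knockout, against 336, 261 and 207 in control (log2 ratio -0.71 ± 0.25). At PE, chr3:181445551-181446650 had 242, 267 and 324 in the knockout, against 422, 391 and 420 in control (-0.56 ± 0.13). The genotypes did not overlap at either stage. A second PE region, chr3:181459251-181459800, had 424, 270 and 237 in the knockout, against 374, 357 and 627 in control, with overlap.

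At the SOX2 start site the PP region chr3:181428951-181430000 had 777, 688 and 783 in the knockout, against 521, 785 and 405 in control. One control value was the highest of the 6, and the exact permutation p was 0.4 (two-sided, 3 values each). This region covers a wild-type region of cluster 6, while the cluster 1 region 1.3 kb before the start was in no list. At 7.1 kb downstream the PP region chr3:181437051-181437700 had 114, 180 and 257 in the knockout, against 49, 128 and 128 in control, also with overlap. The largest log2 ratio near the 9 genes, 4.28 ± 0.84, was at PP in the 150 bp region chr3:181486201-181486350, with 31, 55 and 8 in the knockout, against 0, 0 and 2 in control. It rests on very low control values and was 1.95 with 10 added to each mean, and 3.62 to 5.01 with 1 value left out.

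NANOG had the largest log2 ratio, by size, of the 10 regions within 5 kb of a start, and it was lower in the knockout. At DE the region over its start, chr12:7941801-7942200, which overlaps a wild-type region of cluster 7, had 45, 93 and 64 in the knockout, against 102, 274 and 154 in control. The log2 ratio was -1.38 ± 0.51, and the lowest control value lay just above the highest knockout value. No other stage listed this place. The exact permutation p was 0.1, the smallest possible for 3 values each. With the columns of each genotype scaled to equal totals the genotypes overlapped here.

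The other NANOG regions were distant. At ESC, chr12:7848101-7848650, 93.4 kb to the lower side, had 58, 87 and 51 in the knockout, against 176, 118 and 137 in control. A place 70 kb to the higher side was listed in opposite directions. Its ESC region, chr12:8012401-8013200, had 409, 220 and 189 in the knockout, against 579, 472 and 294 in control, with overlap. Its PP region, chr12:8012951-8013600, had 204, 144 and 107 in the knockout, against 101, 64 and 56 in control, without overlap. The difference between the stages was not tested.

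LIN28A had 9 listed regions, 3 knockout-higher and 6 control-higher, and the lowest median size of log2 ratio of the 9 genes (0.47). At PP both regions at its start were lower in the knockout. The one over the start, chr1:26736501-26737750, had 1156, 1096 and 1509 in the knockout, against 1585, 1647 and 1537 in control, a log2 ratio of -0.34 ± 0.15. The region just before it, chr1:26735851-26736300, had 667, 445 and 506 in the knockout, against 671, 783 and 730 in control (-0.43 ± 0.19). In each the gap between the genotypes was small beside the spread, and in the first it closed when the columns of each genotype were scaled to equal totals. Chromosome 1 as a whole had 75.8% of its PP regions higher in the knockout, while the flanks of LIN28A, from 100 kb to 1000 kb away, had 17 knockout-higher and 17 control-higher PP regions.

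At ESC the LIN28A window held the region with the highest p score near the 9 genes (-log10 p 16.9), chr1:26647851-26648700, 88.3 kb before the start. Its values were 265, 351 and 285 in the knockout, against 497, 671 and 551 in control, well separated, with a log2 ratio of -0.93 ± 0.18. The ESC flanks of LIN28A had 12 knockout-higher and 36 control-higher regions. A second ESC region 6.4 kb after the start had 618, 615 and 385 in the knockout, against 863, 959 and 516 in control, with overlap.

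A stretch 55 to 60 kb before LIN28A was listed at 3 stages in different parts and directions. At DE, chr1:26678751-26680350 had 177, 285 and 211 in the knockout, against 365, 302 and 381 in control. At PE, chr1:26677051-26678550, over wild-type regions of clusters 8 and 5, had 1173, 1061 and 888 in the knockout, against 741, 712 and 978 in control. The PP region chr1:26679501-26681500, over another region of cluster 5, had 1112, 677 and 955 in the knockout, against 669, 788 and 523 in control. Only the DE region was without overlap. Far on the other side, a PP region over a cluster 6 region (chr1:26826701-26828150) had 1198, 997 and 1150 in the knockout, against 1332, 1446 and 1332 in control. At GT, chr1:26700451-26701250 was higher in the knockout, with 164, 133 and 193 in the knockout, against 81, 100 and 25 in control.

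LIN28B had 10 listed regions, 6 knockout-higher and 4 control-higher, and no wild-type cluster region in its window. All 3 DE regions and the PE region were lower in the knockout, and the 2 ESC and 4 PP regions were higher. Of all chromosome 6 regions, 84.0% at ESC, 53.3% at DE, 30.6% at PE and 95.6% at PP were higher in the knockout. Near the start, chr6:105401501-105401950 at DE had 149, 116 and 110 in the knockout, against 309, 160 and 194 in control (log2 ratio -0.82 ± 0.32). At PE, chr6:105404001-105404450 had 170, 114 and 198 in the knockout, against 279, 309 and 234 in control (-0.77 ± 0.25). Over the start at PP, chr6:105404901-105406500 had 373, 537 and 334 in the knockout, against 275, 357 and 226 in control (0.53 ± 0.29). The genotypes overlapped at PP, though not after scaling, and did not overlap at DE or PE. These 3 regions do not overlap each other.

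The RefSeq table places 2 LIN28B starts 16.1 kb apart, and the start used for the window is the position given for hg19 in the choice of the members. At ESC, chr6:105388201-105389550, 15.4 kb to the lower side of that position, had 1108, 906 and 1311 in the knockout, against 800, 728 and 951 in control, with overlap. This region spans the distance of 16.1 kb, where the first start would lie if the spacing held on hg19, which was not checked. The counts within 5 kb used the other start only, so they leave this region out. The ESC region chr6:105441101-105441600 had 79, 94 and 155 in the knockout, against 35, 61 and 33 in control, without overlap. The place 97 kb to the lower side was lower in the knockout at DE and higher at PP. At DE, chr6:105306551-105308200 had 382, 477 and 321 in the knockout, against 718, 619 and 530 in control. At PP, chr6:105306601-105307550 had 264, 312 and 341 in the knockout, against 225, 129 and 195 in control. The genotypes did not overlap at either stage. Of the chromosome 6 regions as a whole, 53.3% were higher in the knockout at DE and 95.6% at PP.

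SALL4, a zinc finger factor, had 11 listed regions, 8 knockout-higher and 3 control-higher, all at least 25.6 kb from the start. None was listed at more than 1 stage. Values were close together at PE in chr20:50384051-50384800, with 949, 961 and 973 in the knockout, against 658, 606 and 749 in control (log2 ratio 0.52 ± 0.09). The nearest region, at DE, chr20:50392651-50393450, had 249, 212 and 124 in the knockout, against 91, 92 and 116 in control (0.96 ± 0.30). Regions in both directions were listed at DE, PE and PP. The control-higher one at DE, chr20:50359251-50359800, had 29, 23 and 75 in the knockout, against 102, 122 and 109 in control. At PE the control-higher region chr20:50510701-50511100 had 52, 12 and 21 in the knockout, against 81, 134 and 93 in control. At PP chr20:50320201-50320800, over a wild-type region of cluster 8, had 198, 183 and 218 in the knockout, against 363, 258 and 306 in control. All 3 control-higher regions were without overlap.

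All 3 GT regions of SALL4 were higher in the knockout, and chromosome 20 had 83.3% of its GT regions higher there. In chr20:50373851-50374400 the values were 124, 110 and 101 in the knockout, against 33, 23 and 60 in control (1.51 ± 0.41). In chr20:50466151-50466450 they were 103, 5 and 81 in the knockout, against 16, 28 and 5 in control, and 1 knockout value equalled the lowest control value. The leading PP region higher in the knockout, chr20:50506001-50506500, had 142, 240 and 115 in the knockout, against 83, 60 and 54 in control.

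ZFP42, a zinc finger gene used as a marker of the undifferentiated state, had 5 listed regions. Each was without overlap between the genotypes, as were 78.5% of all listed regions. The DE region over its start, chr4:188916351-188917250, had 153, 154 and 129 in the knockout, against 308, 280 and 207 in control, a log2 ratio of -0.86 ± 0.18. Chromosome 4 had 70.7% of its DE regions higher in the knockout, and the flanks of ZFP42 had 2 DE regions in each direction. At PE, chr4:188840051-188840600, over a wild-type region of cluster 4, had 113, 182 and 182 in the knockout, against 318, 225 and 522 in control (-1.15 ± 0.41). The ESC region chr4:188883901-188884250 had 93, 78 and 74 in the knockout, against 22, 15 and 39 in control (1.65 ± 0.40). Both PP regions were higher in the knockout, the leading one, chr4:188853051-188853750, with 306, 310 and 473 in the knockout, against 233, 229 and 148 in control. Of all chromosome 4 regions, 89.7% at ESC, 21.2% at PE and 97.6% at PP were higher in the knockout.

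PRDM14, a PR domain factor, had 4 listed regions, none closer than 44.3 kb. At PE 2 regions less than 4 kb apart went in opposite directions. The first, chr8:70902351-70903250, had 222, 110 and 162 in the knockout, against 244, 367 and 398 in control (log2 ratio -1.03 ± 0.35). The second, chr8:70906851-70907300, had 177, 183 and 265 in the knockout, against 61, 137 and 103 in control (1.05 ± 0.37). The second place was listed again at PP, with 72, 206 and 209 in the knockout, against 49, 73 and 79 in control, where the lowest knockout value lay within the control range. At DE, chr8:71028301-71028550 had 46, 61 and 37 in the knockout, against 17, 11 and 4 in control. The wild-type region of cluster 9 found 10 kb from the start was in no list.

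DPPA4 had 4 listed regions, all narrow and of low values, with sizes of log2 ratio from 1.80 to 2.82 that depend on single values. At ESC both were higher in the knockout. The nearer, chr3:109069351-109069700, had 49, 58 and 130 in the knockout, against 16, 27 and 22 in control, and chr3:109110351-109110600 had 47, 32 and 65 in the knockout, against 0, 5 and 27 in control. The log2 ratio of the second was 2.07, and 1.53 to 3.81 with 1 value left out. At GT the regions went both ways. In chr3:108994751-108994950 the values were 0, 7 and 8 in the knockout, against 48, 32 and 44 in control, and in chr3:109010351-109010650 they were 73, 42 and 81 in the knockout, against 11, 7 and 36 in control. The first had a log2 ratio of -2.82, which was -1.77 with 10 added to each mean. The second had 1.80, and 1.44 to 2.73 with 1 value left out. None of the 4 had overlapping values, as was so for 78.5% of all listed regions. Both wild-type regions of cluster 9 within 5 kb of the DPPA4 start were in no list at any stage.

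Of the wild-type cluster regions near the 9 genes, 13 of 21 (61.9%) overlapped a list, beside 38.4% of all cluster regions. The share differed between the genes. All 4 at POU5F1, all 4 at LIN28A and the single region at ZFP42 overlapped a list. At SOX2, NANOG and SALL4 some did and some did not, and at PRDM14 and DPPA4 none did. The 8 in no list lay at SOX2, NANOG, PRDM14, SALL4 and DPPA4. This is a description over few regions. Of the 7 within 5 kb of a start, 2 each lay at POU5F1, SOX2 and DPPA4 and 1 at NANOG. They belonged to clusters 1, 6, 7 and 9. Cluster 3 had no region in the 9 windows, although it holds 11.1% of all cluster regions. The labels do not describe the profile of any cluster.

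At the edge of the 100 kb limit, the outermost region inside was the SALL4 region of PP at 98.2 kb, given above. The nearest outside was a SOX2 region of PE at 100.05 kb, with 7, 28 and 67 in the knockout, against 119, 63 and 92 in control. The naming rule selected 50 of the 79 regions, and the other 29 are included in every count.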

How the data were processed

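The deposited files are 10 lists of differential regions, 1 per genotype and stage, and 9 lists of wild-type cluster regions, all without headers. Per the submitters' processing notes, Bowtie2, MACS2 and hg19 were used; versions and roles of the tools, the differential caller, read shifting and library scaling are not given in the sources used. Each differential region carries the authors' log2 ratio of control over knockout, a -log10 p and 3 whole-number values per genotype of unstated unit. The second set of values was read as control from the names of the lists. The deposited log2 value was recomputed with a pseudocount of 1 and its sign turned to knockout over control. Members were regions with at least 1 bp within 100 kb of the 9 hg19 start sites. Because unlisted regions were not analysed here, no model was fitted across regions and the values were given no count test. Exact permutation tests, overlaps and counts used Python 3.11.15, pandas 2.3.3, numpy 2.4.6 and scipy 1.17.1, and were tested on simulated data. Wilson intervals have 95% confidence. Regions named with values were those within 5 kb of a start, the highest -log10 p of each gene and list, those over a cluster region and places listed at 3 or more stages; others were named after their values were seen. The members and lists were chosen with earlier results of these data known. Other pluripotency genes were not analysed here, since no hg19 annotation was used. The shares over 10 kb windows and over places listed at more than 1 stage were added after the values had been seen.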

Additional observations from a re-analysis of the deposited data

Results flagged for a closer look

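The place 97 kb to the lower side of LIN28B drew attention because all 3 knockout values lay below all 3 control values at DE and above them at PP. The log2 ratio of knockout over control was -0.66 at DE (chr6:105306551-105308200) and 0.74 at PP (chr6:105306601-105307550). A change of direction was common, since only 52.0% of all places listed at more than 1 stage kept theirs. On chromosome 6, 53.3% of listed regions were higher in the knockout at DE and 95.6% at PP. The difference between the stages was not tested.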

How the results depend on the processing

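With a distance of 50 kb the number of listed regions near the genes was 46, that of cluster regions 13, and the knockout share at GT 100% of 5 regions; with 200 kb there were 125 listed regions. Without the POU5F1 window the knockout share at ESC was 50% of 10 regions. At DE it was 22.2% of 9, near the lower end of the interval with all 9 windows (21.4 to 67.4). Of regions with a -log10 p of at least 10 only 6 remained, with a knockout share of 0% at ESC (1 region) and 100% at PP (2 regions), and DE and GT had none. The other shares and counts stayed within their interval or 1.5 times with these settings, with midpoints in place of edges, and with the separated regions alone, and 13 cluster regions overlapped a list also when at least 50% of the cluster region had to be covered. The direction of the 50 named regions held in 450 of 450 recomputations, with pseudocounts of 0.5 and 10, with scaled columns, and with 1 value left out at a time. None of the 79 regions turned when 1 value was left out. Much of this was fixed in advance. A pseudocount added to both means cannot turn a direction, nor can leaving out 1 value where the genotypes do not overlap. The regions were also listed by the authors for this difference. The ratio itself moved by over 1.5 times in 9 of the 79, among them the SALL4 regions chr20:50359251-50359800 (log2 ratio -2.05 to -1.08), chr20:50510701-50511100 (-2.57 to -1.47) and chr20:50466151-50466450 (1.34 to 2.48). With the scaling 3 regions came to overlap (POU5F1 and LIN28A at PP, NANOG at DE) and 2 ceased to (POU5F1 at ESC, LIN28B at PP), leaving 64 without overlap against 65 as deposited. No paired analysis was possible because the columns carry no replicate numbers. Depth is unknown and limits what can be said of the regions with low values.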
